A study of Mus musculus with 9 samples.

Results

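The 10 genes described here are the Notch receptors Notch1, Notch2, Notch3 and Notch4, the ligands Jag1, Jag2 and Dll1, and the target genes Hes1, Hey1 and Hey2. They were chosen by symbol as a fixed list of the pathway, and all 10 were found among the 18484 genes of the deposited tables and passed the filter on low counts. RNA was sequenced from 9 mammary tumours, with 1 library per tumour, of mice of a mixed FVB and C57Bl6 background that carried a single copy of BlgCre and of NeuKI. In these mice the beta-lactoglobulin promoter drives Cre recombinase in luminal oestrogen receptor-negative mammary cells, where Cre removes a STOP cassette in front of an activated rat Neu placed in the endogenous Erbb2 locus. The groups were set by amplification of the Erbb2/Neu locus, by histotype and by reproductive history.

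The 5 high-amplified tumours were all adenocarcinomas of no special type, AC(NST). Of these, MS1155.3 and MS1218.2 grew in parous mice, and the tumours MS1163.1, MS1163.2 and MS1213.1 in virgin ones. The not/low-amplified epithelial tumours numbered 3, each of a parous mouse: MS1166.1 was an AC(NST), whereas MS1349.1 and MS1210.1 were adenosquamous carcinomas (ASQC). MS1156.1 was a sarcoma of a parous mouse without high amplification, and it entered no test. All not/low-amplified tumours were parous and all high-amplified ones were AC(NST), so that effects of amplification, histotype and parity cannot be told apart in these tumours. Each tumour was taken as a replicate, although MS1163.1 and MS1163.2 carry the same mouse number.

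Notch receptors are single-pass membrane proteins that are activated by ligands of the Jagged and Delta-like families on neighbouring cells. Binding exposes the receptor to cleavage by ADAM proteases and then by γ-secretase, and the released intracellular domain enters the nucleus, where it binds the DNA-binding protein RBPJ together with a Mastermind coactivator. Genes of the Hes and Hey families, which encode basic helix-loop-helix repressors, are common targets of that complex. In the mammary gland Notch signalling is known for its part in luminal cell fate, and Notch4 was first found as a site of mammary tumour virus insertion in mice. RNA levels do not measure cleavage of a receptor.

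Of the 10 genes, 8 had a promoter window to search for a motif bound by RBPJ, and only that of Hey2 held it. Windows of 250 bases before to 50 bases after an annotated RefSeq start (GRCm38.p6) were listed for 8 of the 10 genes. None was listed for Hes1 and Hey1, whose promoters were thus not searched. The search used the core motif TGGGAA and the longer motif GTGGGAA, which contains the core, on both strands, and no other form of the motif. Over all 32851 promoter windows of the table, 25.6% held the core, 6.38% held the longer motif and 0.256% held the longer motif at least 2 times. In Hey2 the longer motif stood 2 times, once on each strand, whereas the windows of the other 7 genes held neither motif. Of 10 further genes listed as targets of the pathway, 6 had a window. That of Hes5 also held the longer motif 2 times, again once on each strand, and that of Hes7 held it once. Both are shown because they hold the motif 2 times and because the levels of their genes, given further on, stood out in the same tumour, MS1166.1. They were thus picked for both. Hes7, which is not shown, did not stand out there, but had too few counts to be tested. The sequence of Hey2, on the minus strand, runs from 250 bases before the start to the end of the match that spans it, and that of Hes5, on the plus strand, ends at the last base before the start. Capitals mark the longer motif, which reads TTCCCAC where it lies on the other strand.
Hey2, chr10:30842781-30843033: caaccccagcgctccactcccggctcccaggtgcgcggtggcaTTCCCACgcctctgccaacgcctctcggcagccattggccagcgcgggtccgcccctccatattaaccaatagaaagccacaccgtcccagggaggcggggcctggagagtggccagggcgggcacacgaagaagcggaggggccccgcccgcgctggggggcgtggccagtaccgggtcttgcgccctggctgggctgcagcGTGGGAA
Hes5, chr4:154960673-154960922: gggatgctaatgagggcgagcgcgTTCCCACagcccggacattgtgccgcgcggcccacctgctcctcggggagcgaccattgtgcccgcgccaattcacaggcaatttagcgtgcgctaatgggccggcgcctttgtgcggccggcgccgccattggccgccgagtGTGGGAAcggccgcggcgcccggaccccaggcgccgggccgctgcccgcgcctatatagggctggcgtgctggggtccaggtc
A match says only that these letters are in the window, and binding of RBPJ was not measured.

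The number of reads counted on genes lay between 12501225 and 23912429 per tumour. Levels are given as normalised read counts, that is, counts divided by a size factor for each tumour. Erbb2 was higher in the high-amplified than in the not/low-amplified tumours by 4.16 ± 1.13 (SE) on the log2 scale, with an adjusted p of 0.0879 in edgeR's quasi-likelihood test. The summed level of 8 luminal epithelial markers was between 41532 and 153984 in the 8 epithelial tumours and 836 in the sarcoma, and that of 10 basal and squamous markers was 79449 and 14120 in the ASQCs. The other not/low-amplified tumour, MS1166.1, had a basal and squamous sum of 15318, carried by Krt14 and Krt17, with Krt5 at 11.9 and Trp63 at 13.1. MS1218.2 stood apart from the other 7 epithelial tumours by its sums of 12 endothelial markers (23178, against 3702 to 9994), 9 pericyte and smooth muscle markers (24681), 6 leukocyte markers (16314) and 7 fibroblast markers (374692, against 29032 to 114497). The study's methods name it as the tumour that did not pass their purity estimate. The study's text gives MS1218.2 and MS1213.1 as tumours whose amplification differed between assays of the Neu copy number. It also names the ASQC MS1349.1 as an exception, in which droplet PCR of DNA showed neither removal of the STOP cassette nor amplification. In bulk RNA, fewer cells of a type and less RNA per cell cannot be told apart.

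Among the receptors, Notch1, Notch2 and Notch3 were abundant in every tumour and Notch4 was low, and none of them separated the groups. Notch1 encodes a receptor with broad epithelial expression (chromosome 2, 26457903 to 26516663, minus strand, GRCm38). Its normalised counts in the high-amplified tumours ran from 2597 in MS1163.2 and 4697 in MS1163.1 to 7107 in MS1218.2, 7163 in MS1213.1 and 13100 in MS1155.3. Among the not/low-amplified tumours they were 12743 in MS1166.1, 6404 in MS1349.1 and 5430 in MS1210.1, and the sarcoma had 11162. The highest and the lowest epithelial tumours were both high-amplified, and the range of the not/low-amplified tumours lay inside that of the high-amplified ones.

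Notch2, on chromosome 3 (98013527 to 98150361, plus strand), was the least variable of the receptors. In the high-amplified tumours it was 7663 in MS1213.1, 6987 in MS1218.2, 5883 in MS1155.3, 5703 in MS1163.2 and 4439 in MS1163.1. Among the others it was 7269 in MS1166.1, with 3409 in MS1349.1, 5960 in MS1210.1 and 3267 in the sarcoma. The highest epithelial value was 2.25 times the lowest, compared with 5.04 times for Notch1, and the groups overlapped.

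Notch3, a receptor also known from vascular mural cells, lies on chromosome 17 (32120820 to 32166852, minus strand). Its levels in high-amplified tumours were 8284 in MS1163.1, 7359 in MS1213.1, 6383 in MS1218.2, 6280 in MS1155.3 and 3068 in MS1163.2. MS1166.1 was the highest of the 8 epithelial tumours with 11140, while the ASQCs had 3496 (MS1349.1) and 3117 (MS1210.1) and the sarcoma 2536. Both ASQCs were thus below 5 of the 6 AC(NST) tumours and above MS1163.2.

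Notch4 (chromosome 17, 34564268 to 34588503, plus strand) is known as an endothelial receptor. It lay between 323 and 584 in 7 epithelial tumours and at 1952 in MS1218.2, with 187 in the sarcoma. The 7 values were 584 in MS1163.1, 558 in MS1166.1, 548 in MS1213.1, 525 in MS1349.1, 420 in MS1210.1, 417 in MS1155.3 and 323 in MS1163.2. MS1218.2 was also the tumour with the highest sum of endothelial markers, in which all 12 markers were above 0 in each tumour. Dll4, a Delta-like ligand of endothelial cells that was singled out after its values were seen, was likewise highest there, with 899 against 89.2 to 396 in the other 7. The sarcoma had less Notch4 than any epithelial tumour. Its endothelial sum of 8935, however, was exceeded only by those of MS1218.2 and MS1349.1 (9994). Single markers in it went in both directions. Eng, at 3089, was the highest of the 9 tumours, whereas Pecam1 (607), Kdr (685) and Emcn (126) were below every epithelial tumour but MS1166.1. The rest of the 12 markers are not given singly. The part of the endothelial RNA in these levels was not tested.

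**Figure D1:**
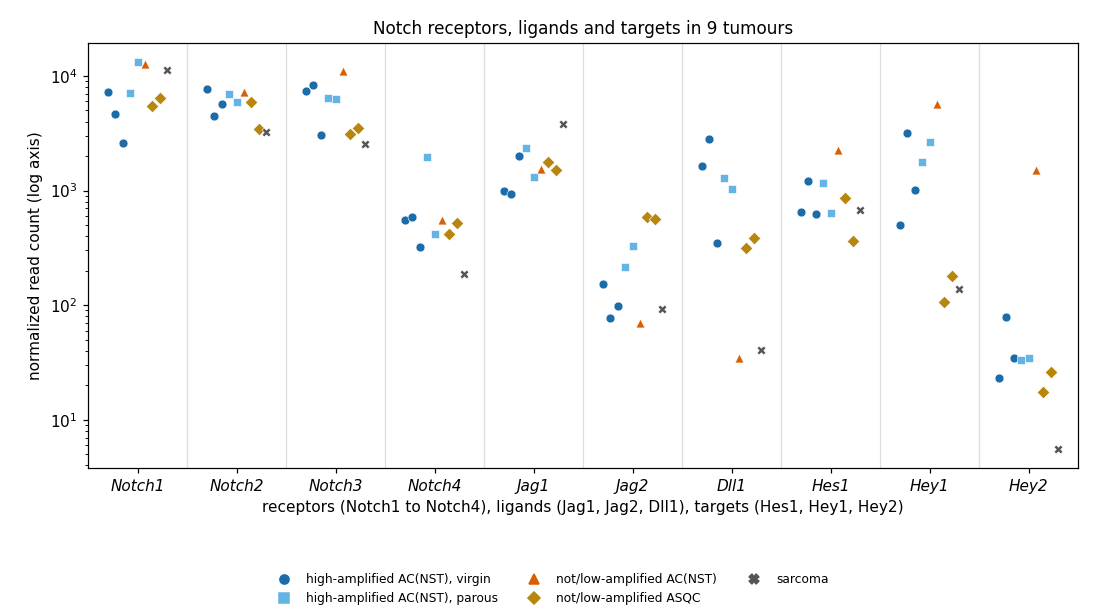
Normalised read count (log axis) of the 10 genes in each of the 9 tumours, 1 point per tumour, with colour and shape for the amplification, histotype and parity labels. The Hey2 point at 1525 is MS1166.1, the Notch4 point at 1952 is MS1218.2, and the 2 ASQC points are the lowest epithelial values of Hey1 and the highest of Jag2.

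**Figure D2:**
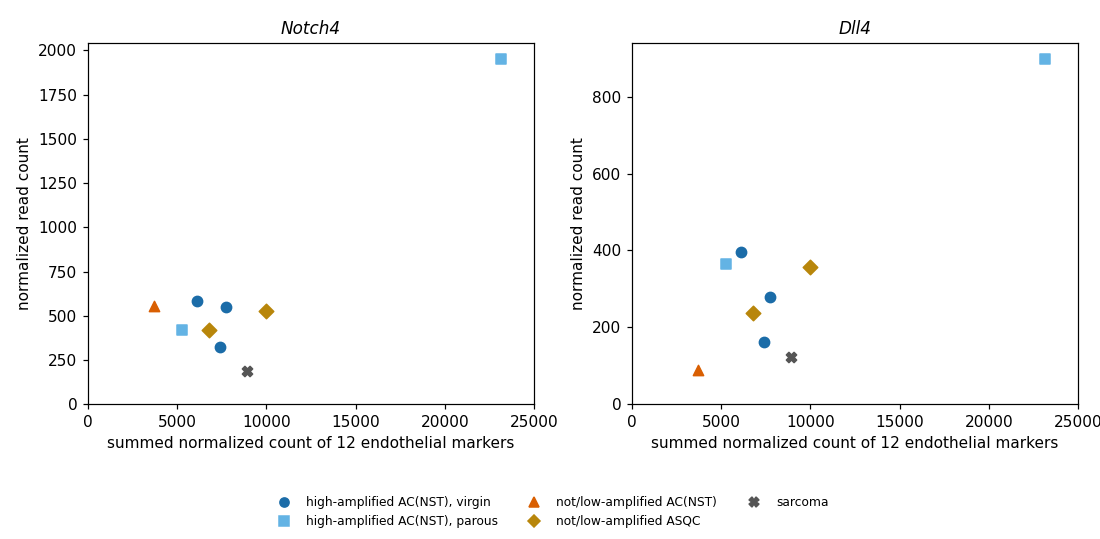
Normalised read count of Notch4 (left) and Dll4 (right) against the summed normalised count of 12 endothelial markers, 1 point per tumour. MS1218.2 lies alone at a marker sum of 23178, with Notch4 at 1952 and Dll4 at 899, and in the other tumours Notch4 does not exceed 584.

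Of the ligands, Jag1 varied little between the epithelial tumours, and Jag2 and Dll1 varied widely. Jag1 (chromosome 2, 137081456 to 137116644, minus strand) encodes Jagged 1. Its level was 2347 in MS1218.2, 1991 in MS1163.2, 1311 in MS1155.3, 996 in MS1213.1 and 927 in MS1163.1, compared with 1769 in MS1210.1, 1556 in MS1166.1 and 1519 in MS1349.1. The 3 not/low-amplified values lay close together and inside the range of the high-amplified ones. In the sarcoma Jag1 was 3768, above all 8 epithelial tumours.

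Jag2 (chromosome 12, 112907819 to 112929776, minus strand), which encodes Jagged 2, was highest in the ASQCs, with 590 in MS1210.1 and 566 in MS1349.1. The high-amplified tumours had 331 in MS1155.3, 215 in MS1218.2, 152 in MS1213.1, 98.2 in MS1163.2 and 77.6 in MS1163.1. MS1166.1, the AC(NST) without high amplification, had 70.2, the lowest of the 8, and the sarcoma 92.1. The ASQCs thus did not overlap with the AC(NST) tumours, whereas the not/low-amplified group held both the highest and the lowest tumours. Next after the ASQCs came MS1155.3, whose basal and squamous marker sum of 5638 was the highest of the high-amplified tumours. MS1166.1, with the lowest Jag2, had a sum of 15318, above the 14120 of the ASQC MS1349.1. A link between this sum and Jag2 was not tested.

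Dll1 (chromosome 17, 15367354 to 15376872, minus strand), which encodes Delta-like 1, was highest in high-amplified tumours. Its levels there were 2788 in MS1163.1, 1629 in MS1213.1, 1276 in MS1218.2, 1028 in MS1155.3 and 348 in MS1163.2. In the ASQCs they were 387 (MS1349.1) and 317 (MS1210.1), and MS1166.1 had 34.5, from 29 counts, while the sarcoma had 40.5, also from 29 counts. Among the high-amplified tumours, 4 of 5 were above all 3 not/low-amplified ones, and MS1163.2 lay between the ASQCs. MS1163.1 and MS1163.2, which share a mouse number and both labels, were thus the highest and the lowest of the high-amplified tumours for this gene.

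Of the targets, Hes1 varied least and Hey2 most, and all 3 were highest in MS1166.1. Hes1 (chromosome 16, 30064384 to 30067796, plus strand) encodes a repressor that many cell types express. In high-amplified tumours it was 1221 in MS1163.1, 1168 in MS1218.2, 647 in MS1213.1, 643 in MS1155.3 and 629 in MS1163.2. The others had 2261 in MS1166.1, 852 in MS1210.1 and 362 in MS1349.1, with 677 in the sarcoma. The not/low-amplified tumours held both the highest and the lowest values.

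Hey1 (chromosome 3, 8663359 to 8667256, minus strand) encodes a related repressor. Its AC(NST) levels were 5661 in MS1166.1, 3184 in MS1163.1, 2633 in MS1155.3, 1788 in MS1218.2, and then 1013 in MS1163.2 and 504 in MS1213.1. The ASQCs had 108 (MS1210.1) and 180 (MS1349.1), and the sarcoma had 140. Every AC(NST) tumour was therefore above both ASQCs, and the 3 not/low-amplified tumours lay at both ends of the range.

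Hey2 (chromosome 10, 30832359 to 30842801, minus strand), another repressor of the family, was between 17.6 and 78.7 in 7 tumours and 1525 in MS1166.1. The other not/low-amplified tumours had 17.6 (MS1210.1) and 26.3 (MS1349.1). The high-amplified ones had 78.7 in MS1163.1, 34.8 in each of MS1163.2 and MS1155.3, 33.3 in MS1218.2 and 23.1 in MS1213.1. In MS1166.1 the level of this gene, whose promoter held the motif 2 times, was 19.4 times that of the next tumour and 45.8 times the median of the other 7. The sarcoma had 5.58, from 4 counts.

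MS1166.1 was the highest of the 8 epithelial tumours for 4 of the 10 genes, Notch3, Hes1, Hey1 and Hey2, beside 22.3% of all genes tested. Of the 45 other pathway genes tested, it was the highest for 10, a share close to that of all genes. Of the 10 further genes listed as targets it was the highest for 5, Bhlhe41, Hes5, Hes6, Nrarp and Tle1. The label is that of the list, and whether Notch signalling sets the levels of these genes here was not tested. Only 6 of these 10 had enough counts to be tested, and Hes5 was not among them. The following were singled out after their values were seen. Nrarp, which encodes a feedback inhibitor of Notch signalling, was 12873 in MS1166.1 and between 127 and 639 in the other 7. This level was 20.2 times that of the next tumour, and no match stood in the promoter window of Nrarp. Hes5, a repressor of the same family as Hes1, had 79 counts (a level of 94.0) in MS1166.1 and 0 in the other 8 tumours, the sarcoma included; a count of 0 leaves room for up to 3 counts. Hes6 was 619 in MS1166.1, against 93.2 to 454 in the other epithelial tumours. By contrast, Bhlhe40 was 6692 there, below the 8633 of MS1163.1. Hes7, which had too few counts to be tested, was 3.57 there and 7.73 in MS1155.3, both near the floor. Heyl was 443 there, below the 500 of MS1218.2, and reached 3369 in the sarcoma. The same tumour had the lowest Dll1, Jag2, Dll4 (89.2) and Lfng (55.9, a glycosyltransferase that modifies the receptors) of the 8. Its endothelial marker sum, 3702, was the lowest of all 9.

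**Figure D3:**
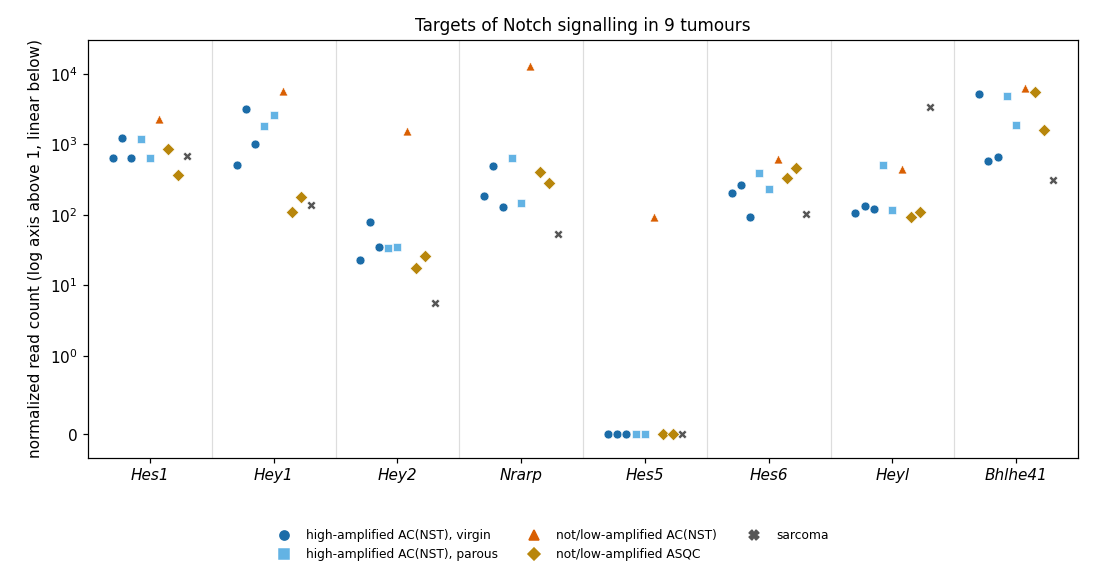
Normalised read count of the targets Hes1, Hey1 and Hey2 and of 5 further genes listed as targets in each of the 9 tumours (log axis above 1, linear below), 1 point per tumour. MS1166.1, the triangle, is the highest epithelial tumour for all 8 genes drawn but Heyl, and Hes5 has counts only there. The 5 further genes are a selection from a list of 10, of which MS1166.1 was the highest for 5. Bhlhe40 and Hes7, for which it was not the highest, are among those not drawn.

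The exon length of a gene was that of all its annotated exons joined, 14232 bases for Notch1 and 8089 for Notch3. Another choice of length could change the order below. Per kilobase of exon, the mean level over the 8 epithelial tumours was highest for Notch3 (759 ± 352 normalised counts per kb, SD). Next came Hey1 (577 ± 582), Notch2 (549 ± 134), Notch1 (520 ± 261) and Hes1 (478 ± 292). These were followed by Jag1 (266 ± 82.8), Dll1 (231 ± 217), Notch4 (82.6 ± 65.4), Hey2 (48.3 ± 115) and Jag2 (37.7 ± 30.5). Neighbours in this order mostly differed by less than their spread: Hey1 was above Notch2 in 3 of 8 tumours, Notch2 above Notch1 in 5, and Notch1 above Hes1 in 3. The clearest steps were from Dll1 to Notch4 and from Notch4 to Hey2, each in the same direction in 7 of 8 tumours. Hey2 stood above Jag2 in the mean but in only 2 of 8 tumours.

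As a share of the summed receptor level per kb, Notch1 was between 16.1% (MS1163.2) and 40.1% (MS1155.3) of the receptors in the epithelial tumours and 55.1% in the sarcoma. Notch3 was between 28.1% (MS1210.1) and 55.7% (MS1163.1), and Notch4 reached 11.1% in MS1218.2. Among the 3 ligands, Dll1 was 66.7% and 79.5% of the summed level in MS1213.1 and MS1163.1, but 2.87% in MS1166.1 and 1.43% in the sarcoma. Jag1 was 93.6% and 96.6% in the latter pair. Jag2 was 18.3% and 18.7% in the ASQCs and at most 9.21% elsewhere. With 1 library per tumour these shares have no replicate check of their own, and they rest on the same exon lengths.

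**Figure D4:**
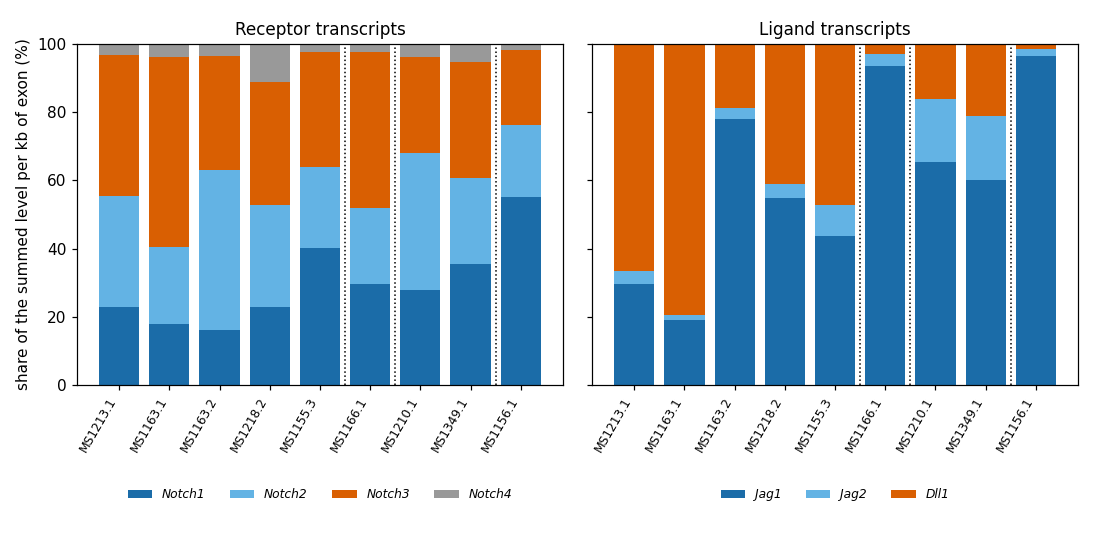
Share (%) of each receptor in the summed receptor level per kb of exon (left) and of each ligand in that of the 3 ligands (right), 1 bar per tumour; dotted lines part, from left to right, the high-amplified AC(NST), the not/low-amplified AC(NST), the 2 ASQCs and the sarcoma. Dll1 makes up 79.5% of the ligands in MS1163.1 and 2.87% in MS1166.1.

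The first comparison asked whether the genes differed between high-amplified and not/low-amplified tumours. None of the 10 passed the threshold of edgeR's quasi-likelihood test (an adjusted p under 0.05 over 14007 genes and more than a 2-fold difference), which 0.921% of all genes passed, 61 of them higher and 68 lower. An unadjusted p under 0.05 was found for 2 of 10, beside 22.8% of all genes, and no gene of the 10 had groups that did not overlap, beside 15.6%. Over 2-fold were 3 of 10 (24.5% of all genes). Dll1 was higher in high-amplified tumours (1414 ± 900, SD, n = 5) than in the others (246 ± 187, n = 3), by 2.52 ± 0.84 (SE) on the log2 scale, with an edgeR adjusted p of 0.128. Under DESeq2, which called 8.86% of all genes and 1 of the 10, the difference in Dll1 had an adjusted p of 0.0113 and was past the threshold, and without MS1166.1 it was 2.01 in edgeR. Hey2 differed by -3.62 ± 1.20 (edgeR adjusted p = 0.128), and this difference turned to 0.90 without MS1166.1 (edgeR adjusted p = 0.533).

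In edgeR the difference in Hey1 in that comparison was -0.07 ± 1.11 (SE) on the log2 scale with MS1166.1 in it. Over 19 alternative fits it ran from -1.66 to 3.66 and turned in 8. Among these 8 was limma on log2 values with MS1166.1 kept, given further on. Without MS1166.1 Hey1 was 3.66 ± 0.79 higher in the high-amplified tumours than in the ASQCs. The edgeR adjusted p of 0.0828 did not pass the threshold. Hes1 moved from -0.39 to 0.51 and Notch1 from -0.21 to 0.23. Jag2 differed by -1.22 ± 0.67 and Notch4 by 0.63 ± 0.57, the latter by -0.08 without MS1218.2. The differences in Notch2 (0.17 ± 0.32), Notch3 (0.12 ± 0.48) and Jag1 (-0.08 ± 0.34) were within their standard errors. The median over the 10 genes was -0.08, beside 0.02 over all genes. Within the AC(NST) tumours, where MS1166.1 stood alone against 5, the difference in Hey2 was -5.24, which restates the single high value of that tumour. Within parous tumours alone no gene of all 14007 passed in edgeR, and 1522 had an unadjusted p under 0.05.

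The second comparison set the ASQCs (n = 2) against the AC(NST) tumours (n = 6). Again none of the 10 passed in edgeR, beside 0.236% of all genes. An unadjusted p under 0.05 was found for 3 of 10 (8.72% of all genes), and the groups did not overlap for 2 of 10, Hey1 and Jag2 (10.3% of all genes), while 5 of 10 differed over 2-fold (19.5%). Hey1 averaged 144 ± 51.5 (SD) in the ASQCs and 2464 ± 1853 in the AC(NST) tumours, a difference of -4.08 ± 0.96 (SE) on the log2 scale or 16.9-fold, with an edgeR adjusted p of 0.202. DESeq2, with calls for 2.9% of all genes and for no other of the 10, called this difference with an adjusted p of 1.73e-05, and over 14 alternative fits it stayed between -5.26 and -3.66, past the threshold in that 1 of them. Jag2 was 578 ± 16.9 in the ASQCs and 157 ± 101 in the AC(NST) tumours, a difference of 1.88 ± 0.56 (edgeR adjusted p = 0.327). It was between 1.72 and 3.08 over the same alternatives.

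Of the others, Notch3 differed by -1.09 ± 0.49 (SE, log2 scale; edgeR adjusted p = 0.572). The 4 receptors all had negative differences, between -1.09 and -0.41, as had the 3 targets. Hey2 differed by -3.67 ± 2.02 and by -0.90 without MS1166.1. Dll1 differed by -1.75 ± 1.17 (edgeR adjusted p = 0.699), but among the not/low-amplified tumours alone it was 3.38 higher in the ASQCs than in MS1166.1. The median over the 10 genes was -0.73, beside -0.08 over all genes. Of 10 basal and squamous markers, 7 were tested and 1, Dsg3, passed in this comparison (3.78 ± 0.49, edgeR adjusted p = 0.0211), and Krt6a was higher by 6.71 ± 1.64 (edgeR adjusted p = 0.22). Whether the share of squamous cells has a part in the Jag2 and Hey1 levels was not tested.

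The third comparison set tumours of virgin mice (n = 3 tumours) against tumours of parous mice (n = 5 tumours). Of the virgin tumours, MS1163.1 and MS1163.2 carry the same mouse number, and reproductive history belongs to the mouse. No fit of this comparison joined them, so that its standard errors and p-values take them as independent. No gene of the 10 and none of all 14007 genes passed in edgeR (0%), while DESeq2 called 516 genes (2.87%) and none of the 10. An unadjusted p under 0.05 was found for 1 of the 10 and 14.2% of all genes (1984 genes). That gene was Jag2, which was lower in tumours of virgin mice (109 ± 38.5, SD) than in those of parous mice (354 ± 224), by -1.69 ± 0.66 (SE) on the log2 scale (edgeR adjusted p = 0.329). Notch1 differed by -0.88 ± 0.46 (edgeR adjusted p = 0.404). Dll1, at 1.39 ± 0.92, and Hey2, at -2.80 ± 1.65, were also over 2-fold, as were 18.8% of all genes. The groups overlapped for all 10 genes (9.25% of all genes did not). The 3 comparisons rest on the same 8 tumours, so that a tumour far from the rest enters each of them.

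**Figure D5:**
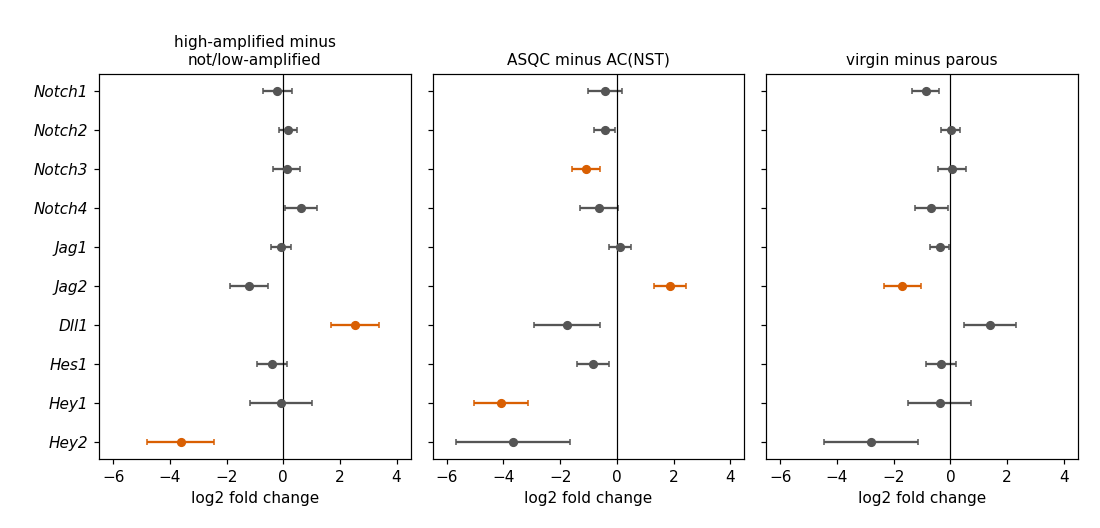
Log2 fold change of the 10 genes, with its standard error as a bar, in the 3 comparisons by edgeR over the 8 epithelial tumours; orange marks an unadjusted p under 0.05. None has an adjusted p under 0.05, and the widest bars are those of Hey2 (2.02 for histotype).

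Of 54 other genes of the pathway, 45 had enough counts to be tested, and in edgeR none was called in any of the comparisons. An unadjusted p under 0.05 was found for 7 (15.6%) by amplification, 2 higher and 5 lower, for 2 (4.44%) by histotype and for 3 (6.67%) by parity, each below the share of all genes (22.8%, 8.72% and 14.2%). Their medians of -0.03, -0.06 and -0.12 were close to those of all genes (0.02, -0.08 and -0.10). The 9 genes of the cleavage machinery, among them the γ-secretase subunits, lay between -0.55 and 0.45 by amplification, and none had an unadjusted p under 0.05 in any comparison. The same held for the 5 glycosyltransferases.

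By amplification, the genes with small p-values included nuclear factors. Hdac1, a histone deacetylase of corepressor complexes, differed by -1.24 ± 0.28 (SE, log2 scale; edgeR adjusted p = 0.0659) and was between 247 and 529 in the high-amplified and 797 and 945 in the not/low-amplified tumours. Snw1, which encodes the RBPJ cofactor SKIP, differed by -0.87 ± 0.20 (edgeR adjusted p = 0.0702). For both genes the groups did not overlap, which held for 4 of the 45 genes tested (8.89%) and for 15.6% of all genes. Without MS1218.2, 2 of the 45 genes tested passed the threshold, beside 8.91% of all genes, and Hdac1 was 1 of them (edgeR adjusted p = 0.0348). DESeq2 called 4 of the 54, among them Hdac1, Dtx3l and Dlk1, beside 8.86% of all genes. Nrarp differed by -3.79 ± 1.13 (edgeR adjusted p = 0.106), and by -0.12 without MS1166.1.

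By histotype an unadjusted p under 0.05 was found for Dtx3 (-1.25 ± 0.44 SE on the log2 scale, edgeR adjusted p = 0.466), an E3 ligase of the Deltex family, and for Dlk1 (adjusted p = 0.5). Dlk1, a ligand-like protein, was at 29.4 or below in every tumour and at 0 in both ASQCs and in the AC(NST) tumours MS1155.3 and MS1166.1, and no fold is given for it. By parity it was found for Hdac1 (-1.20 ± 0.35, edgeR adjusted p = 0.297), Dtx3l (-1.29 ± 0.40, adjusted p = 0.305) and Hes6 (-1.09 ± 0.44, adjusted p = 0.330).

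For each of the 10 genes, the gene whose level was most alike across the 8 epithelial tumours was found by Pearson's r of log2(normalised count + 1) among all genes tested. These descriptions rest on 8 libraries each. Each r was picked as the highest among all genes tested, so that its size alone is no evidence of a link. The highest r that such a search gives by chance was not determined. Notch4 was 1952 in MS1218.2 and 584 in the next tumour, and Hey2 was 1525 in MS1166.1 and 78.7 in the next. How far these single tumours set the r of Notch4 and Hey2 was not tested. Notch1 was most like Oplah (r = 0.946), Notch2 like Ddx43 (r = 0.949), Notch3 like Zfp13 (r = 0.975) and Notch4 like Gamt (r = 0.993). Among the ligands, Jag1 was most like Tuba1a (r = 0.943), Jag2 like Sema4f (r = 0.989) and Dll1 like Tep1 (r = 0.975). Hes1 was most like Scrn2 (r = 0.948), Hey1 like Lipt2 (r = 0.970) and Hey2 like Ube2h (r = 0.972). No gene of the list was the nearest of another.

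In the sarcoma, which has no replicate, Jag1 was above all 8 epithelial tumours, while Notch2, Notch3, Notch4 and Hey2 were below all of them. Of all genes tested, 21.7% were above and 20.8% below. Its sums of pericyte and smooth muscle markers (32546), fibroblast markers (608165) and skeletal muscle markers (14918) were the highest of the 9 tumours.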

How the data were processed

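RNA of 9 tumours was sequenced after depletion of ribosomal RNA, with a kit that marks the strand. According to the study's methods, reads were aligned to mouse build 38 with STAR, keeping unique positions with a limited number of mismatches, and counted with HTSeq-count; the strand setting of the counting is not given in the sources used here. Per the submitters' processing notes, FastQC, HTSeq, DESeq2 and Cufflinks were also among the tools. The files deposited by the authors hold raw counts per gene for all 9 tumours and, for the 8 epithelial ones, a signal: the same counts divided by 1 size factor per tumour. The sarcoma's factor was computed against the same 8 tumours. Notch1, Notch3, Notch4 and Dll1 overlap genes on the opposite strand that are no rows of these tables.

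Counts of the 8 epithelial tumours were tested with edgeR 4.0.16 (R 4.3.3; TMM, quasi-likelihood test, Benjamini-Hochberg adjustment over the 14007 genes that reached 10 counts in 3 or more tumours). A gene was called with an adjusted p under 0.05 and a fold change over 2. Replicates are tumours, each with 1 library, and their p-values measure the spread between these tumours. In counts simulated for the amplification comparison with 14007 genes, 33 of 103 genes changed 4-fold and 71 of 97 changed 8-fold were recovered, with 3 false calls. Alternatives used DESeq2 1.42.0, limma 3.58.1 on log2 values with 1 or 10 added, other scalings, no filter, covariates and subsets of tumours; 2 were added after the data were seen, amplification as a covariate of histotype and the removal of MS1166.1 with MS1218.2. Positions and exon lengths come from GENCODE M21 (GRCm38), and promoters from RefSeq. The 10 genes, the pathway and marker lists and the tests were chosen with earlier results of these data known. Named beside the 10 genes are the called pathway genes of each comparison, or the 3 with the smallest p where none was called, and the nearest gene of each by correlation; others are marked as singled out, and 1 gene that this rule names is not reported here. Depth was 12501225 to 23912429 counts, and a count of 3 or fewer was read as no more than a floor.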

Additional observations from a re-analysis of the deposited data

Results flagged for a closer look

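Each of the 10 genes was looked at in the high-amplified, the AC(NST) and the parous epithelial tumours, and in 7 of these 30 combinations a single tumour lay far outside the rest by Dixon's criterion. Chance alone flags about 1 in 20 groups at this 95% criterion where values are normally distributed. The normalised counts were not transformed and the groups share tumours, so that rate does not carry over to them. The same value can also be flagged in more than 1 group. Notch4 in MS1218.2 (1952) was far above the next value among the high-amplified and the AC(NST) tumours (584) and among the parous tumours (558). That tumour also had the highest endothelial marker sum, 23178, and among the epithelial tumours the highest level of 20.0% of all genes tested. Hes1 in MS1166.1 (2261) was far above the next AC(NST) tumour (1221). Hey2 in MS1166.1 (1525) was far above the next AC(NST) tumour (78.7) and the next parous tumour (34.8). Hey2 in MS1163.1 (78.7) was itself above the other high-amplified tumours, the next of which had 34.8. The causes were not tested.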

How the results depend on the processing

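Over 14007 genes, 129 were called by amplification in edgeR. The count was 1598 with DESeq2 (907 higher, 691 lower), 229 without a filter, 210 with limma after adding 10, 31 with the tumours of 1 mouse number summed, 0 with parity as a covariate, 0 in parous tumours, 69 in AC(NST) tumours, 4 with the sarcoma included, and 0 to 1248 when 1 tumour was left out (0 without MS1210.1, 1248 without MS1218.2). By histotype, 33 genes became 522 with DESeq2, 171 without a filter, 0 in not/low-amplified tumours, 0 with amplification as a covariate, 803 without MS1166.1 and MS1218.2, and 8 to 97 with 1 tumour left out (97 without MS1166.1, 8 without MS1163.1). By parity, 0 became 516 with DESeq2 and 0 to 63 with 1 tumour left out (63 without MS1155.3). The causes were not tested. No paired analysis was possible because the labels give no replicate numbers that the groups share.

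Of the 10 genes, log2 differences by amplification that turned were those of Hey1 (1.64 and 1.59 with limma after adding 1 and 10, 0.21 with parity as a covariate, 0.22 in parous tumours, 0.31 with the sarcoma), Notch1 (0.33 with that covariate, 0.35 in parous tumours), Jag1 (0.20 and 0.23) and, in AC(NST) tumours, Notch2 (-0.27), Notch3 (-0.85) and Jag2 (1.29). By histotype they were those of Dll1 (3.38 in not/low-amplified tumours, 3.39 with amplification as a covariate) and Notch4 (0.0103 without MS1166.1 and MS1218.2). By parity, in high-amplified tumours, they were those of Notch2 (-0.14), Notch3 (-0.0387) and Hey2 (0.40). With 1 tumour left out, the ranges by amplification were -0.57 to 0.23 for Notch1, -0.0771 to 0.39 for Notch2, -0.23 to 0.93 for Notch3, -0.0777 to 0.83 for Notch4, -0.30 to 0.0549 for Jag1, -0.82 to 0.51 for Hes1, -0.70 to 3.66 for Hey1 and -4.27 to 0.90 for Hey2. By histotype the range was -0.0401 to 0.29 for Jag1. By parity the ranges were -0.22 to 0.19 for Notch2, -0.20 to 0.39 for Notch3, -0.86 to 0.0288 for Notch4, -0.71 to 0.13 for Hes1, -1.44 to 0.40 for Hey1 and -3.46 to 0.70 for Hey2. Other scalings (upper quartile, median of ratios) turned none of the 10. At these depths Hey2 rests on 24 to 75 counts in each epithelial tumour but MS1166.1.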
